A study of Mus musculus with 2 samples.

Results

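The B cells of mouse pancreatic tumours were described in 2 single-cell RNA libraries, 1 from vehicle-treated and 1 from takinib-treated animals. B cells were chosen by measured expression, as barcodes with 3 or more summed UMIs of Cd79a, Cd79b and Ms4a1. Cd79a and Cd79b encode the signalling chains of the B cell receptor, and Ms4a1 encodes the surface protein CD20. A UMI (unique molecular identifier) stands for 1 captured transcript. Only barcodes with 1000 or more UMIs, 500 or more genes and no more than 20% mitochondrial UMIs were kept. Barcodes with markers of other cells were left out: Mzb1 of at least 2 UMIs together with Jchain of at least 10 (plasma cells), S100a8 plus S100a9 at 2% of UMIs or more (neutrophils), over 2 UMIs of C1qa, C1qb and C1qc (macrophages), or any UMI of Cd3e (T cells) or Epcam (epithelium). The rule found 808 B cells among 36662 kept barcodes, 174 of 9872 in vehicle and 634 of 26790 in takinib.

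Both groups were KPPC mice of 6 weeks. KPPC is not spelled out in the labels; in the field it names mice in which a Cre recombinase active in pancreatic cells recombines engineered alleles, deleting both copies of Trp53 among them, so that B cells are not the cells it targets. The mice were given vehicle, or takinib at a dose of 50 mg/kg, over 14 days. The drug inhibits TAK1, the kinase encoded by Map3k7. With 1 library in each group no difference has a replicate check, no test between treatments was made, and no p-value is given. Square brackets hold 95% intervals, which cover counting error only.

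A B cell recognises antigen through its membrane immunoglobulin and the Cd79a and Cd79b chains, which signal through the kinases Lyn, Syk and Btk. Further downstream, the Bcl10 and Malt1 complex and TAK1 activate the IKK kinases, which release NF-kB, and MAP kinases induce the immediate-early genes such as Fos, Junb and Egr1. Antigen is shown to T cells on MHC class II. In germinal centres, activated B cells divide, mutate their immunoglobulin genes and can switch their isotype. In pancreatic cancer B cells are known both scattered in the stroma and gathered in lymphoid aggregates.

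The stretches upstream of 4 genes are shown because these genes, described further below, had higher levels in takinib B cells and encode feedback inhibitors of NF-kB (Nfkbid, Nfkbia, Tnfaip3) or of MAP kinases (Dusp1). The sequences are from RefSeq on GRCm38.p6, which lists 3 start sites for Nfkbid and 2 for Tnfaip3. For these the site with most motif matches is shown, so that their presence is no finding: the other start sites of both genes, among them the Nfkbid site at the 5′ end of the GENCODE gene, held 0 matches. The sequences run 5′ to 3′ on the gene's strand, and include only bases before the start site and outside annotated exons. Capitals mark matches to the NF-kB consensus, to TGACGTNA (the cyclic AMP response element) or to TGANTCA (the AP-1 element), each searched on both strands. They lie at chr7:30422156-30422405 (plus strand), chr12:55492648-55492897 (minus), chr10:19015411-19015547 (minus) and chr17:26508520-26508722 (minus), in the order printed.
Nfkbid: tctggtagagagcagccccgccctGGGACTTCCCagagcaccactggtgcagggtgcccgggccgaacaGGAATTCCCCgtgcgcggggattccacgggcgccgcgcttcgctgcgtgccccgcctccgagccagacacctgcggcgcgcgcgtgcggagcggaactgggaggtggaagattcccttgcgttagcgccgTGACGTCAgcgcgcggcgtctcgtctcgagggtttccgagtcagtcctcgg
Nfkbia: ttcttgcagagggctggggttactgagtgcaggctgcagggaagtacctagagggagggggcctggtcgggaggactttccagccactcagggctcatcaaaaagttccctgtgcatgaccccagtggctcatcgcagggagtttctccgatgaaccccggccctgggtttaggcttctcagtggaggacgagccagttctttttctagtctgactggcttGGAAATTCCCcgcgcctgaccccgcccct
Tnfaip3: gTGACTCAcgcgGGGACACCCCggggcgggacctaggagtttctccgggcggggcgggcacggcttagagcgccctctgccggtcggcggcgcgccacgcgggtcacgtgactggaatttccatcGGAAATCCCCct
Dusp1: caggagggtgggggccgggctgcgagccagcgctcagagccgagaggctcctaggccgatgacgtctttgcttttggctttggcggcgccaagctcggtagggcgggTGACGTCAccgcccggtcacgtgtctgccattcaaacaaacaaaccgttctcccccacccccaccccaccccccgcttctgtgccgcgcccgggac
Nfkbid held 2 matches to the NF-kB consensus, 226 and 181 bases upstream of the start site, and TGACGTCA at 51 bases. Nfkbia held 1 NF-kB match at 29 bases, and Tnfaip3 held 2, at 125 and 12 bases, beside TGACTCA at 136 bases. Dusp1 held TGACGTCA at 143 bases. Of 32851 RefSeq promoter rows, 7.251% held the NF-kB consensus in their 250 upstream bases, 2.52% held TGACGTNA and 6.749% held TGANTCA. A match is a description of the letters, since no binding was measured.

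The libraries differed in more than treatment. The vehicle matrix listed 704261 barcodes, down to 0 UMIs, and the takinib matrix 34158, none of them under 500 UMIs. Total UMIs were 80850334 and 139292875. B cells had similar depth in both, with a median of 1612.5 UMIs and 761 genes in vehicle and 1566 UMIs and 764 genes in takinib. Their median mitochondrial share was 13.5% in vehicle and 3.24% in takinib. Vehicle B cells were of mixed sex, 16 with Xist UMIs alone and 35 with Y-linked UMIs alone, whereas 424 takinib B cells held Xist and 0 held a Y-linked UMI. Of the kept barcode sequences 400 occurred in both libraries, and 0 belonged to B cells in both. Library, barcode filter and mitochondrial share therefore cannot be told apart from the drug in any comparison below. Neither can sex, save where takinib B cells are set against the 16 vehicle B cells of female origin. In dissociated tissue, fewer cells of a type in the tumour and fewer recovered from it also cannot be told apart.

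B cells made up 1.76% [1.51, 2.04] of kept barcodes in vehicle and 2.37% [2.19, 2.56] in takinib. This order did not hold under every definition. With S100a8 and S100a9 held under 0.5% of a B cell's UMIs, all 174 vehicle B cells and 464 takinib B cells remained, and the takinib share was slightly the lower (log2 ratio -0.03). Neutrophil-class barcodes, with at least 5% of UMIs from S100a8 and S100a9, made up 0.689% of the vehicle and 35.3% of the takinib barcodes, and take up that part of the denominator. Counted only among barcodes with under 2% of these UMIs, the B cell share was higher in takinib by 1.46 on the log2 scale. With at most 10% mitochondrial UMIs, 39 vehicle and 629 takinib B cells remained.

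Genes that the rule did not use were those of B cells. Ighd, the constant region of IgD on mature naive B cells, stood at 490 CPM in vehicle and 514 CPM in takinib B cells (CPM, UMIs of the gene per 1000000 UMIs summed over the cells), against 3.84 and 1.88 CPM in T-class cells. Ebf1, which encodes an early B lineage factor, stood at 399 and 512 CPM. Pax5, the factor that holds B cell identity, stood at 177 and 155 CPM, and Fcmr, the IgM Fc receptor, at 388 and 297 CPM. T-class cells had at most 46.1 CPM of any of these, for Ebf1 in vehicle. At least 1 UMI of the 4 genes was found in 93.1% [88.3, 96.4] of vehicle and 93.7% [91.5, 95.5] of takinib B cells, against 10.4% and 1.30% of T-class cells at median depths of 1539 and 1852.5 UMIs. Just inside the rule, the 22 vehicle and 99 takinib B cells with 3 rule UMIs held such a UMI in 95.5% and 88.9% of cases. Just outside it, barcodes with 2 rule UMIs numbered 14 and 65, and 85.7% and 76.9% held one.

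**Figure D1:**
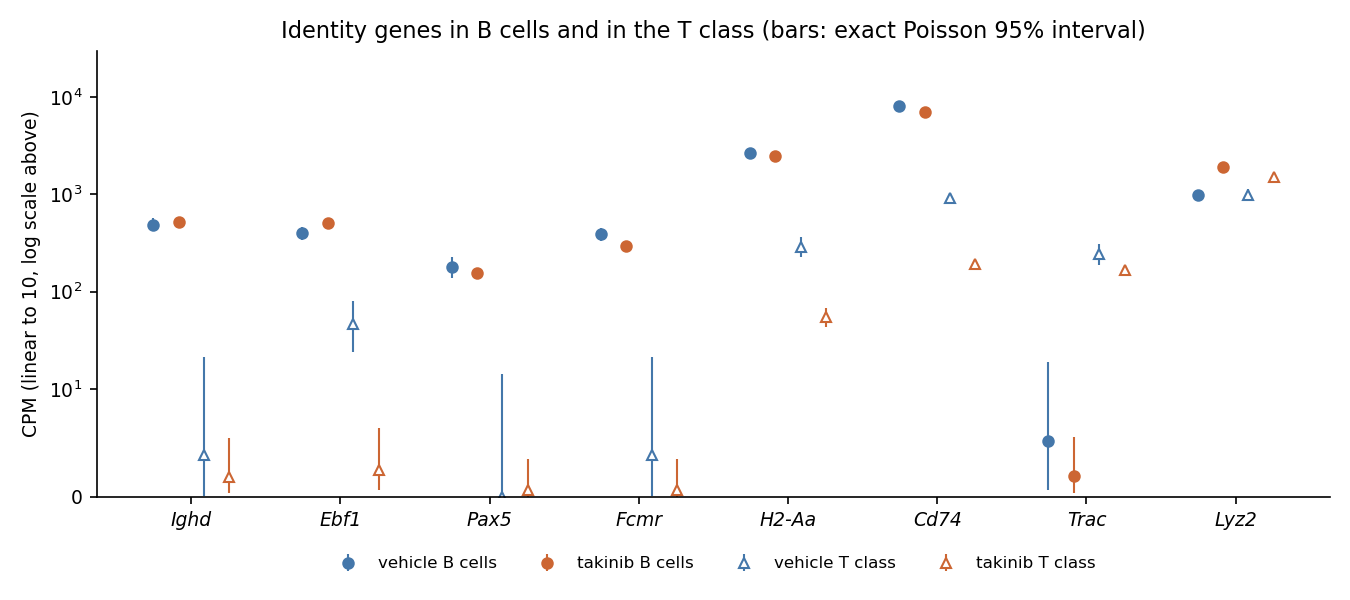
Summed level in CPM (vertical axis, linear to 10 and log above) of genes outside the rule in B cells (filled circles) and T-class cells (open triangles) of each library, with exact Poisson 95% intervals. The B lineage genes Ighd to Fcmr lie above 150 CPM in B cells and below 50 CPM in the T class, Trac is the reverse, and Lyz2 of macrophages is near 1000 CPM or above in both.

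The 20 genes that stood highest over the T class in both libraries were mostly known B lineage genes. They included Ly6d (1154 and 842 CPM in vehicle and takinib B cells), the lambda constant genes Iglc2 and Iglc3, the inhibitory receptor Cd22, the class II chaperone genes H2-Ob and H2-DMb2, the complement receptor gene Cr2 and the adaptor gene Bank1. Vpreb3, which is kept on from immature B cells, stood at 195 and 152 CPM. Scd1, a fatty acid desaturase gene, was also among them, at 203 and 205 CPM, as was the unnamed gene model Gm30211.

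Of the 8 genes of B cell precursors, 1, the cytokine receptor gene Il7r, had at least 10 UMIs, 6 in vehicle and 54 in takinib, 15.6 and 34.0 CPM. Rag1, Rag2, Vpreb1 and Igll1, which build or replace receptor chains in the bone marrow, had 0 UMIs in both libraries. Of 6 plasmacytoid dendritic markers, 4 were detected in vehicle and 3 in takinib, summing to 339 and 206 CPM, close to the 311 and 168 CPM of T-class cells, and Siglech was at 0 in both. NK markers together reached 5.21 CPM in vehicle B cells and 17.7 CPM in takinib B cells, and T markers outside the rule 62.5 and 45.4 CPM, against 2642 and 2290 CPM in the T class. Cd5 of B1 cells had 1 and 4 UMIs.

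RNA of other lineages was present in both libraries, and that of neutrophils and red cells was more abundant in takinib. S100a8 and S100a9 together, although limited by the rule, reached 62.5 CPM in vehicle and 4290 CPM in takinib B cells, close to the 3743 CPM of takinib T-class cells. The 7 neutrophil markers outside the rule summed to 44.3 and 528 CPM, with Ly6g at 0 in vehicle. Macrophage markers outside the rule, all 7 detected in both, summed to 1886 and 2860 CPM over all B cells and to 1791 and 1710 CPM in those under 4000 UMIs. Erythroid markers summed to 18.2 and 3663 CPM, and the 7 epithelial markers outside the rule to 305 and 1675 CPM. Of the epithelial sums Lcn2 alone held 7.81 and 1583 CPM, and takinib neutrophil-class cells held 12593 CPM of it. The other epithelial markers together were lower in takinib. Fibroblast markers went the other way, at 1560 and 400 CPM. The part of these other lineages in the differences between the libraries was not tested. For some genes named below the level in other cell classes is given. Where it is not given, those cells may hold the gene as well.

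A small number of deep B cells held a large part of the UMIs and had fewer B cell transcripts per UMI. The 18 vehicle and 80 takinib B cells of 4000 UMIs or more held 28.6% and 41.6% of all B cell UMIs. In them, UMIs of Ighd, Ebf1, Pax5 and Fcmr, which the rule did not use, numbered 5.56 and 4.38 per 10000, against 18.1 and 22.2 per 10000 in the B cells under 4000 UMIs. Without the deep cells the fibroblast markers stood at 376 and 105 CPM, whereas takinib neutrophil, epithelial and erythroid markers stood at 622, 1622 and 3277 CPM. The epithelial sum includes Lcn2, and for the erythroid sum 1 cell of 2636 UMIs held 1215 UMIs of Hbb-bs. Because of the deep cells, values for B cells under 4000 UMIs, 156 in vehicle and 554 in takinib, are given beside part of the results. All other values are over all B cells and include the deep cells. This limit was chosen after the values were seen.

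**Figure D2:**
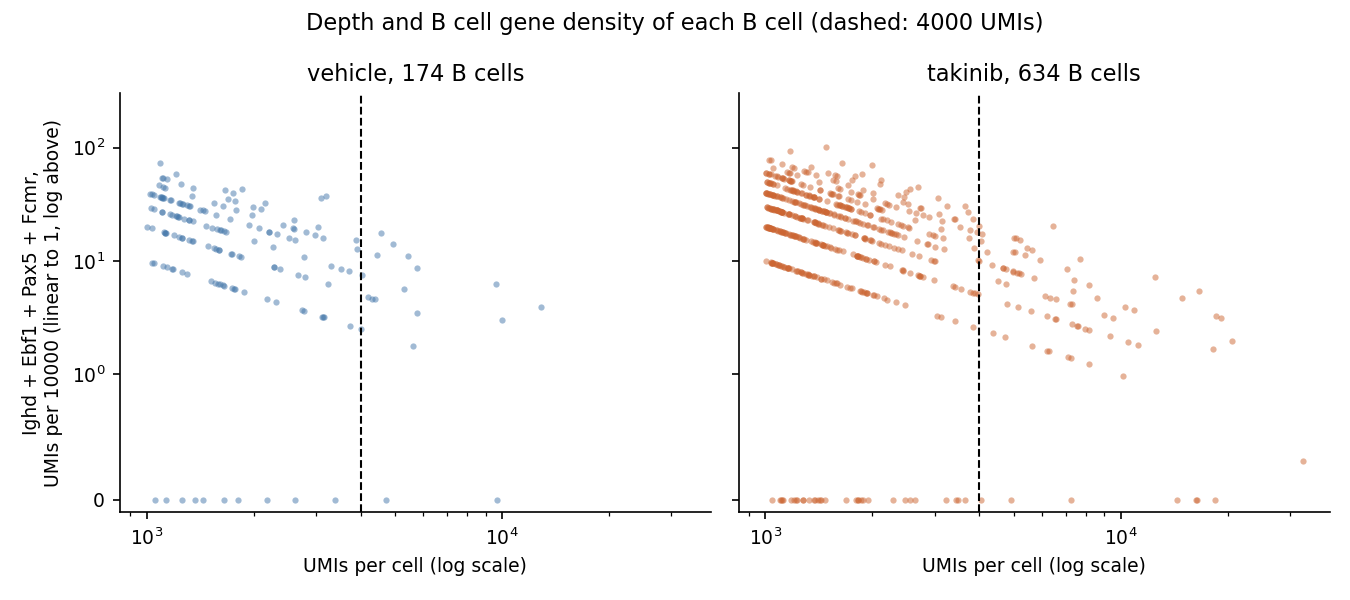
UMIs per cell (horizontal axis, log scale) against summed UMIs of Ighd, Ebf1, Pax5 and Fcmr per 10000 UMIs (vertical axis, linear to 1 and log above), 1 point per B cell. Right of the dashed line at 4000 UMIs the density of these genes over the summed cells was lower in both libraries, 5.56 per 10000 in vehicle and 4.38 in takinib.

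For some genes of other lineages, 1 to 3 cells held most of the UMIs. In takinib, 3 B cells held 97.8% of the 505 UMIs of Elane, the neutrophil elastase gene of marrow precursors, and 97.9% of the 337 UMIs of Mpo. A single cell of 5624 UMIs held 112 of the 114 UMIs of the basophil protease gene Mcpt8. Another, of 18526 UMIs with 4 rule UMIs, held 382 of the 391 UMIs of the fibroblast protease gene Mmp3. For Cxcl13, the chemokine that draws B cells to follicles, 251 of 326 takinib UMIs came from 1 cell. Of 4117 takinib UMIs of the haemoglobin gene Hbb-bs, 84.8% came from 3 cells, the first 2 of 4062 and 2636 UMIs. In vehicle, all 61 UMIs of Prl2c3 came from 1 cell of 12901 UMIs. Under 4000 UMIs, takinib B cells held 10 UMIs of Elane.

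Genes of B cell receptor signalling had log2 ratios on both sides of 0, 8 above and 11 below. Of the 19 genes tabulated from this list outside the rule, 0 passed a log2 ratio of 1 or -1 (takinib CPM plus 10 over vehicle CPM plus 10). The background for that count is 8.47% of the 4296 genes with at least 50 UMIs in either library, which were past 1, and 1.63%, which were past -1. At this list size a count of 0 is near the background. The list's median log2 ratio was -0.05 over all B cells and 0.01 under 4000 UMIs, beside 0.09 and 0.13 over all such genes. Under 4000 UMIs also 0 of the 19 passed, where 9.16% of 2555 genes were past 1 and 1.37% past -1. Syk, a kinase recruited to the receptor, stood at 216 CPM in vehicle and 307 CPM in takinib, a ratio of 1.42 [1.12, 1.81]. Lyn, the Src-family kinase that starts the signal, stood at 151 and 245 CPM, and Btk at 70.3 and 67.5 CPM. Fcgr2b, the inhibitory IgG receptor, was at 159 and 316 CPM over all B cells and at 160 and 227 CPM under 4000 UMIs; macrophage-class cells held 938 and 979 CPM of Fcgr2b. Cr2, the complement receptor, stood lower in takinib, 123 against 214 CPM, a ratio of 0.576 [0.442, 0.754].

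The drug's target was sparse. Map3k7 had 6 UMIs in vehicle and 38 in takinib, 15.6 and 24.0 CPM, a ratio of 1.53 [0.643, 4.44], an interval that includes no difference. Of the 13 genes tabulated from the TAK1 and IKK list with at least 10 UMIs, 0 passed the limit in either direction, where 8.47% and 1.63% of all genes did, so that the count is near the background, and the median was 0.0025. Malt1, the protease of its complex with Bcl10, stood at 151 and 174 CPM, and Ikbkb, which encodes an IKK kinase, at 120 and 95.8 CPM. The transcript of an inhibited kinase does not measure its activity.

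Transcription factors of the B lineage also had 0 of 14 genes past the limit, near the background of 8.47% of all genes past 1 and 1.63% past -1. The median was -0.19 over all B cells and 0.12 under 4000 UMIs. Ebf1 was at 412 CPM in vehicle and 761 CPM in takinib under 4000 UMIs, a log2 ratio of 0.87. Spib stood at 141 and 78.2 CPM and Ikzf3, the gene of the lymphoid factor Aiolos, at 242 and 147 CPM over all B cells.

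MHC class II genes had 0 of 11 members past the limit in B cells, near the background of 8.47% of all genes past 1 and 1.63% past -1. The 2 described in the macrophage class were lower there in takinib. H2-Aa stood at 2652 CPM in vehicle and 2487 CPM in takinib B cells, a ratio of 0.938 [0.875, 1.01], and at 3032 and 593 CPM in macrophage-class cells. Cd74, the invariant chain, stood at 8198 and 7109 CPM in B cells and at 9653 and 1880 CPM in macrophage-class cells. H2-Ab1 had the lowest log2 ratio of the list, -0.51, from 2204 to 1549 CPM. The median of the 11 genes was -0.21 over all B cells and 0.02 under 4000 UMIs, with 0 past the limit, while the same genes had a median of -0.70 in T-class cells. Ciita, the master regulator of class II, stood at 154 and 113 CPM in B cells. The difference between cell classes was not tested, since each class came from 1 library per group.

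Class I genes had a median log2 ratio below 0 but 0 past the limit, and the interferon list had a median near 0. For the 9 class I genes a count of 0 is near the background of 8.47% past 1 and 1.63% past -1. Their median was -0.43 over all B cells and -0.44 under 4000 UMIs. Psmb9, an immunoproteasome subunit, stood at 182 and 105 CPM and Tap2, a peptide transporter, at 88.6 and 53.0 CPM, while H2-D1 went the other way, 826 and 1060 CPM. Against vehicle cells of female origin the class I median was 0.02. Among 12 interferon genes, with a median of 0.08, 1 was past the limit in each direction, near the background of 8.47% past 1 and 1.63% past -1. Ifi27l2a stood at 396 CPM in vehicle and 190 CPM in takinib, and Rsad2, an antiviral enzyme gene, had 0 and 23 UMIs, at least 1.86-fold higher in takinib.

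Levels of immunoglobulin constant genes differed between the libraries by isotype and by depth limit. Of 11 genes 3 were past -1 and 0 past 1, against 1.63% and 8.47% of all genes, with a median of -0.83. Under 4000 UMIs 2 were past -1, against 1.37% of genes, and the median was -0.06. IgD transcripts were found in most B cells: 55.7% [48.0, 63.3] of vehicle and 64.8% [61.0, 68.5] of takinib B cells held an Ighd UMI, against 0.80% and 0.489% of T-class cells. After each B cell was thinned to 1000 UMIs, the shares were 42.0% and 48.9%. Ighm, the IgM constant gene, stood at 3045 CPM in vehicle and 1555 CPM in takinib over all B cells, and at 2181 and 1607 CPM under 4000 UMIs. In vehicle, cells of male origin held 7766 CPM of Ighm and cells of female origin 1410 CPM. Of 1169 vehicle Ighm UMIs, 541 came from 1 plasma-like cell. Igkc, the kappa constant gene, stood at 2086 and 1140 CPM, and the lambda constant gene Iglc2 at 682 and 824 CPM.

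Switched isotypes were more frequent in vehicle B cells. At least 2 Igha or Ighg UMIs, and more of them than of Ighm plus Ighd, were found in 32 of 174 vehicle B cells, 18.4% [12.9, 24.96], and in 19 of 634 takinib B cells, 3.0% [1.81, 4.64]. The same pattern was found in 2.40% of vehicle and 1.14% of takinib T-class cells, which should lack these transcripts. Thinned to 1000 UMIs the shares were 10.3% [6.25, 15.9] and 1.58% [0.759, 2.88], and under 4000 UMIs 13.5% and 2.35%. Of the vehicle cells 17 held more Igha and 15 more Ighg. An Igha UMI alone is weaker evidence, since 21.6% of vehicle T-class cells held one beside 24.7% of vehicle B cells. Ighg is clearer: 21.8% of vehicle and 8.36% of takinib B cells held an Ighg UMI, against 0% [0, 2.91] (0 of 125 cells) and 4.40% of T-class cells. Ighg2b had 54 UMIs in vehicle and 45 in takinib, 141 and 28.4 CPM, a ratio of 0.202 [0.133, 0.305]; with barcodes thinned before the rule its log2 ratio turned to 1.46.

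Use of variable segments was diverse in both libraries. A single Igkv segment with at least 2 UMIs and at least 80% of a cell's Igkv UMIs could be read in 92 vehicle and 273 takinib B cells, and covered 47 and 64 different segments. The most frequent was Igkv1-110, in 11 vehicle and 18 takinib cells, equalled in takinib by Igkv1-135 with 18. Among lambda segments Iglv1 led, in 9 of 13 and 21 of 35 readable cells. Kappa RNA was also found outside B cells, since 17.6% of vehicle and 56.8% of takinib T-class cells held a UMI of a kappa gene. Whether it was free RNA or came from doublets was not tested.

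A few B cells looked like plasma cells without meeting the rule for them. In vehicle, 1 cell of 9670 UMIs held 71 UMIs of the plasma cell chaperone gene Mzb1, 541 of Ighm and 1468 of Igkv12-46. In takinib, 3 cells held 107 to 146 UMIs of Jchain, which joins IgM and IgA chains, and 0 or 1 of Mzb1. The 2 that held IgM both used Ighv7-3, with Igkv8-34 in 1 and Igkv9-120 in the other, and the third held 580 of the 669 takinib Igha UMIs. Tnfrsf17, the survival receptor of plasma cells, had 0 UMIs in B cells of both libraries.

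Germinal centre genes had low counts and did not all go one way. Mybl1, a factor of germinal centre B cells, had 14 UMIs in vehicle and 1 in takinib, a ratio of 0.0173 [0.000409, 0.114], and Rgs13, a regulator of chemokine signals, had 9 and 0, at least 12.4-fold lower in takinib. Gcsam, named for germinal centres, and Nuggc each had 8 and 1. S1pr2, a receptor that keeps cells in germinal centres, had 9 and 7, 23.4 and 4.41 CPM. Bcl6, the master factor of the programme, had 15 and 26 UMIs, 39.1 and 16.4 CPM, but takinib neutrophil-class cells held 41.6 CPM of it. Fas, which these cells also carry, was past 1 in the other direction, 13.0 and 37.2 CPM, with 178 CPM in takinib neutrophil-class cells. Of the 3 genes tabulated from this list with at least 10 UMIs, 1, Mybl1, was past -1 and 1, Fas, was past 1.

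At least 2 UMIs of the 6 genes Bcl6, S1pr2, Gcsam, Rgs13, Mybl1 and Nuggc were found in 15 of 174 vehicle B cells, 8.62% [4.91, 13.8], and in 0 of 634 takinib B cells [0, 0.580]. This gate, which leaves out Fas, was set after the values were seen. T-class cells met it in 0 of 125 and 1 of 614 cases. The 15 vehicle cells were deep, with a median of 4570 UMIs, and thinning to 1000 UMIs left 2 of 174 vehicle cells, 1.15% [0.140, 4.09], and 0 of 634 takinib cells [0, 0.580], intervals that overlap. Under 4000 UMIs, 6 of 156 and 0 of 554 cells met it. Within vehicle, 11 of the 15 were switched, against 21 of the other 159, and 10 held at least 3 UMIs of proliferation genes, against 31. The other 159 were shallower, with a median of 1567 UMIs, and these counts were not matched for depth. Ighd stood at 27.6 CPM in the 15 and at 597 CPM in the other vehicle B cells. By sex-linked UMIs, 3 of the 15 were of female and 4 of male origin, and 8 held neither.

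Proliferation genes were lower in takinib B cells as a group. All 12 genes of the list had log2 ratios below 0, 3 passed -1 against a background of 1.63% of genes, and the median was -0.73. Under 4000 UMIs the median was -1.22, with 5 of 8 genes past -1 against 1.37%. Mki67, the marker of cycling cells, stood at 195 CPM in vehicle and 80.1 CPM in takinib, and under 4000 UMIs at 117 and 23.8 CPM, a ratio of 0.203 [0.113, 0.361]. Top2a, the DNA topoisomerase of dividing cells, stood at 185 and 53.6 CPM, and Stmn1, a microtubule regulator, at 185 and 57.4 CPM. Pclaf, the PCNA-associated factor, was not in the list and is named because its log2 ratio was among the 10 lowest of these data. It stood at 300 and 56.1 CPM over all B cells and at 182 and 10.8 CPM under 4000 UMIs. Cells with a Mki67 UMI made up 14.4% of vehicle and 6.47% of takinib B cells, and 7.47% and 3.0% after thinning; the intervals of the thinned shares, [4.04, 12.4] and [1.81, 4.64], overlap. The same list had a median of -0.43 in T-class cells. Summed proliferation genes stood at 5538 CPM in the 15 vehicle cells with germinal centre genes and at 1429 CPM in the other 159. In takinib B cells the sum was 1178 CPM, so the 15 vehicle cells held much of the summed difference.

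**Figure D3:**
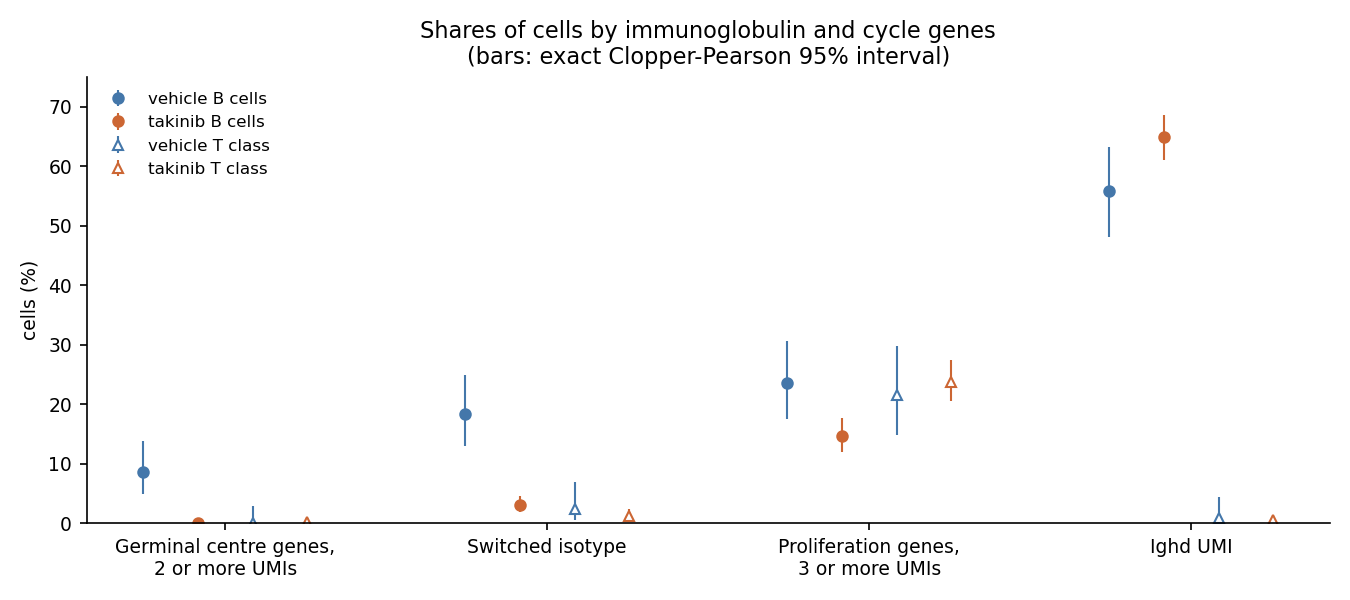
Percentage of cells (vertical axis) of each library with germinal centre genes, a switched isotype, proliferation genes or an Ighd UMI, in B cells (filled circles) and T-class cells (open triangles), with exact Clopper-Pearson 95% intervals. Switched cells (18.4% against 3.0%) were more frequent in vehicle B cells, germinal centre genes were found in 15 of 174 against 0 of 634 cells but in 2 against 0 after thinning, and Ighd was seen in most B cells of both libraries and in almost no T-class cell.

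Immediate-early genes were higher in takinib B cells throughout the list. All 18 had log2 ratios above 0, 11 passed 1 against a background of 8.47% of genes, and the median was 1.36 both over all B cells and under 4000 UMIs. Junb, a subunit of the AP-1 factor, stood at 151 CPM [115, 195] in vehicle and 832 CPM [788, 878] in takinib, a ratio of 5.51 [4.23, 7.29]. Fos, its partner, stood at 70.3 and 419 CPM. Dusp1, the phosphatase that switches off MAP kinases, stood at 65.1 and 541 CPM, a ratio of 8.31 [5.59, 12.9]. Ier3 was at 65.1 and 564 CPM, Zfp36, which degrades cytokine mRNA, at 156 and 485 CPM, and Egr1 at 65.1 and 218 CPM. The lowest log2 ratio of the list was that of Btg2, 0.57.

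These differences were also seen in shares of cells and against vehicle cells of either sex. A Junb UMI was found in 17.2% of vehicle and 64.5% of takinib B cells, and after thinning in 9.20% [5.35, 14.5] and 48.4% [44.5, 52.4]. For Dusp1 the thinned shares were 5.75% [2.79, 10.3] and 24.8% [21.4, 28.3]. Vehicle cells of male origin held 129 CPM of Junb and those of female origin 89.5 CPM, both below takinib. The median log2 ratio, immediate-early, was 1.51 against the first and 1.36 against the second.

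T-class cells, which come from the same libraries, differed the same way, with a median of 0.83 for this list. Junb stood at 265 CPM in vehicle and 878 CPM in takinib T-class cells, and a Junb UMI was found in 52.3% of the takinib T-class cells after thinning. Takinib neutrophil-class cells held 2543 CPM of Junb and 2190 CPM of Dusp1, more than takinib B cells, and this was so for 16 of the 18 genes. Subtracting a neutrophil profile in proportion to S100a8 and S100a9 removed 2.82% of takinib B cell UMIs and left the median log2 ratio, immediate-early, at 1.34. With S100a8 and S100a9 under 0.5% of a cell's UMIs, the median was 1.24. Both steps rest on the 2 genes that the rule had limited, so they cannot show how much neutrophil RNA remained. Lcn2, at 12593 CPM in takinib neutrophil-class cells, had a log2 ratio of at least 4.82 in every alternative setting. The part of neutrophil RNA in the immediate-early difference was not tested.

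**Figure D4:**
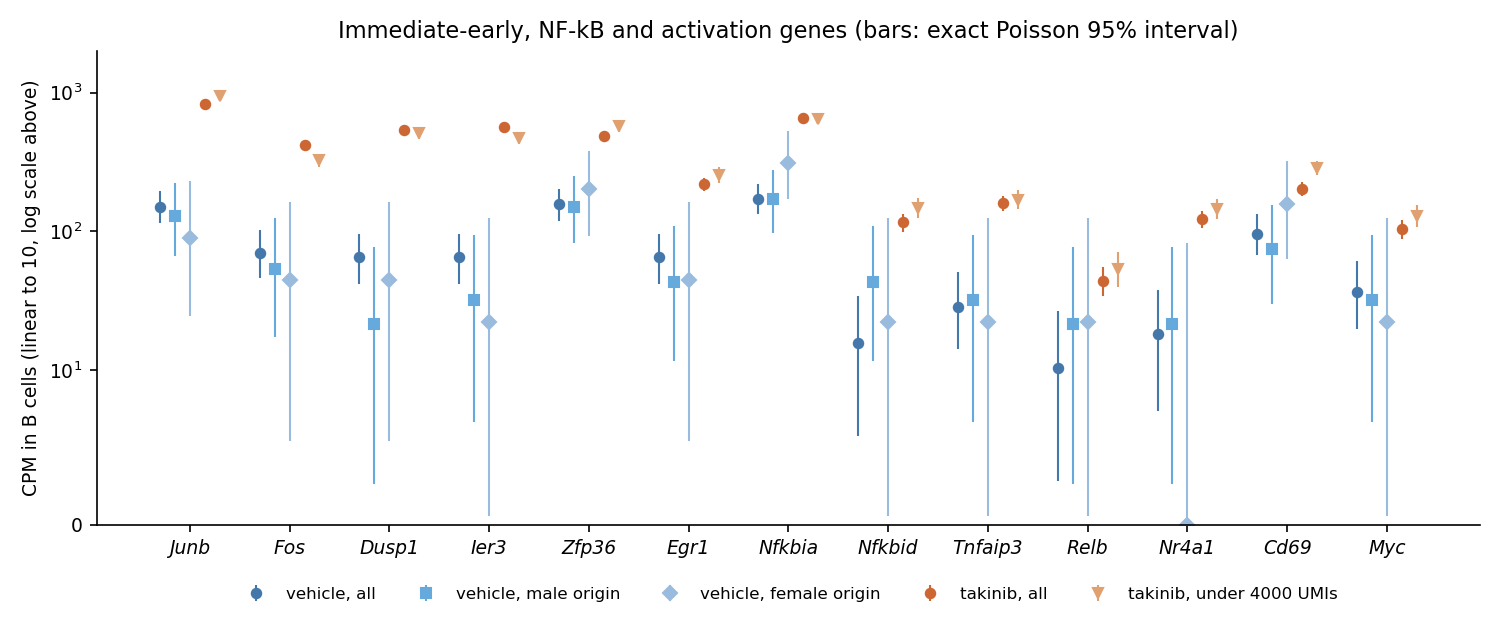
Summed CPM in B cells (vertical axis, linear to 10 and log above) of immediate-early, NF-kB and activation genes, for all vehicle cells, vehicle cells of male and of female origin, all takinib cells and takinib cells under 4000 UMIs, with exact Poisson 95% intervals. Junb stood at 151 CPM in vehicle and 832 CPM in takinib, and Nfkbid at 15.6 and 116 CPM; intervals of the 16 female-origin cells are wide.

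Among NF-kB targets the feedback inhibitors Nfkbia, Tnfaip3 and Nfkbid were past 1, as was the subunit Relb, whereas Nfkb1 and Nfkb2 differed little. Of the 22 genes 9 passed 1 and 0 passed -1, against a background of 8.47% and 1.63% of genes, and the median was 0.85 over all B cells and 0.72 under 4000 UMIs. Nfkbia, which encodes the inhibitor IkB alpha, stood at 172 CPM in vehicle and 659 CPM in takinib, a ratio of 3.83 [2.99, 4.99]. Tnfaip3, the gene of the deubiquitinase A20, stood at 28.7 and 160 CPM. Nfkbid, a nuclear IkB protein of lymphocytes, had 6 UMIs in 3 vehicle cells and 184 UMIs in 138 takinib cells, 15.6 and 116 CPM, a ratio of 7.42 [3.35, 20.5]. A single vehicle cell of 4199 UMIs held 4 of the 6, and under 4000 UMIs Nfkbid had 2 and 137 UMIs. Of the subunits, Relb stood at 10.4 and 44.1 CPM and Rel at 96.4 and 143 CPM, while Nfkb1 stood at 125 and 132 CPM and Nfkb2 at 44.3 and 43.5 CPM. Traf1, a signalling adaptor, stood at 23.4 and 75.7 CPM and the survival gene Bcl2a1b at 109 and 308 CPM. Cd40 and Cd83, both B cell activation genes, had log2 ratios of -0.21 and -0.15.

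Takinib neutrophil-class cells held more than takinib B cells for 17 of these 22 genes, among them Nfkbia at 2591 CPM and Tnfaip3 at 488 CPM. Cxcl2, a neutrophil chemokine, had the highest log2 ratio of the list, 5.49, and stood at 25858 CPM in that class and at 2595 CPM in takinib T-class cells. Nfkbid was close in both, at 116 CPM in takinib B cells and 110 CPM in takinib neutrophil-class cells, and stood at 31.8 CPM in macrophage-class and 41.3 CPM in T-class cells. A Nfkbid UMI was found in 11.99% [9.56, 14.8] of takinib B cells after thinning, in 10.3% of takinib neutrophil-class cells, in 5.21% [3.59, 7.28] of takinib T-class cells and in 1.15% [0.140, 4.09] of vehicle B cells. Takinib B cells with and without an Ighd UMI held it at 122 and 107 CPM. Among vehicle B cells, those of male origin had 4 Nfkbid UMIs and those of female origin 1.

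Activation genes of lymphocytes had a median of 0.85 over 11 genes, 3 of them past 1 where 8.47% of all genes were, and 0.94 under 4000 UMIs. Nr4a1, induced by receptor signalling, had 7 UMIs in vehicle and 194 in takinib, 18.2 and 122 CPM, a ratio of 6.71 [3.19, 16.9]; takinib neutrophil-class cells held 321 CPM. Cd69, which holds lymphocytes in tissue, stood at 96.4 and 202 CPM, and Myc, the growth regulator, at 36.5 and 104 CPM. Neutrophil-class cells of takinib held less of both than B cells, at 35.0 and 4.24 CPM. Dusp2, an immediate-early phosphatase gene, stood at 49.5 and 146 CPM in B cells, with 45.6 CPM in takinib neutrophil-class cells. Cd86, a costimulatory ligand, stood at 23.4 and 51.1 CPM. In T-class cells the median of the activation list was -0.59. Irf4 was at 14.6 and 68.0 CPM under 4000 UMIs but at 39.1 and 50.4 CPM over all B cells; 11 of its 15 vehicle UMIs were in cells of male origin.

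Naive and homing genes showed small differences in both directions. Klf2, a factor of quiescent circulating lymphocytes, was the only follicular gene past the limit, 193 CPM in vehicle and 443 CPM in takinib, and was at 442 CPM in takinib T-class and 1254 CPM in takinib neutrophil-class cells. Fcer2a, the CD23 gene of follicular B cells, stood at 112 and 57.4 CPM, a ratio of 0.512 [0.353, 0.754]. Of 12 homing genes 0 passed the limit, near the background of 8.47% of all genes past 1 and 1.63% past -1, with a median of 0.05. Ccr7, which leads cells to lymphoid T zones, stood at 39.1 and 70.6 CPM, Gpr183, which guides B cells to the follicle's edge, at 23.4 and 55.5 CPM, and Cxcr4 at 117 and 204 CPM. Ccr6 was lower in takinib, at 67.7 and 35.3 CPM, and Cxcr5, the follicle receptor, stood at 39.1 and 29.6 CPM, a ratio of 0.758 [0.417, 1.46].

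Survival genes of the BAFF system did not pass the limit. Tnfrsf13c, the BAFF receptor, stood at 130 and 88.3 CPM over all B cells and at 128 and 126 CPM under 4000 UMIs, and Tnfrsf13b at 109 and 96.5 CPM. Of the 8 survival genes 2 were past 1, where 8.47% of all genes were. These were Mcl1, an inhibitor of apoptosis, at 284 and 637 CPM, and Pim1, a survival kinase, at 88.6 and 246 CPM. Both were higher in takinib neutrophil-class cells, at 2053 and 1051 CPM. Among B cell cytokines, Tnf stood at 18.2 and 58.0 CPM and Ltb, the lymphotoxin of lymphoid tissue, at 443 and 309 CPM. The log2 ratio of Tnf was 1.27 over all B cells and 0.35 under 4000 UMIs with S100a8 and S100a9 under 0.5%. Il10 of regulatory B cells had 0 and 3 UMIs. Il6 had 1 and 26 UMIs, of which 1 and 1 were in cells under 4000 UMIs. Of 10 Toll-like receptor genes 2 passed 1, where 8.47% of all genes did. They were Tlr2 and Tlr4, both with higher levels in neutrophil-class cells, whereas Cd180, a B cell receptor of this family, stood at 75.5 and 97.1 CPM.

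Heat shock and mitochondrial genes were lower in takinib B cells. All 10 heat shock genes had log2 ratios below 0, 3 passed -1 against a background of 1.63% of genes, and the median was -0.49, or -0.79 under 4000 UMIs. Hspa1b, an inducible HSP70, stood at 72.9 and 8.83 CPM, Hsph1, its exchange factor, at 62.5 and 18.3 CPM, and Hspa8, the constitutive chaperone, at 862 and 653 CPM. T-class cells had a median of -0.88 for these genes. All 13 mitochondrial genes were past -1 and made up 18.6% of the genes past -1; mt-Co1, a subunit of the respiratory chain, stood at 31094 and 8634 CPM. Nuclear genes of the same chain had a median of 0.03, with 0 of 12 past the limit, near the background of 8.47% past 1 and 1.63% past -1. Small ribosomal subunit genes had a median of 0.13.

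**Figure D5:**
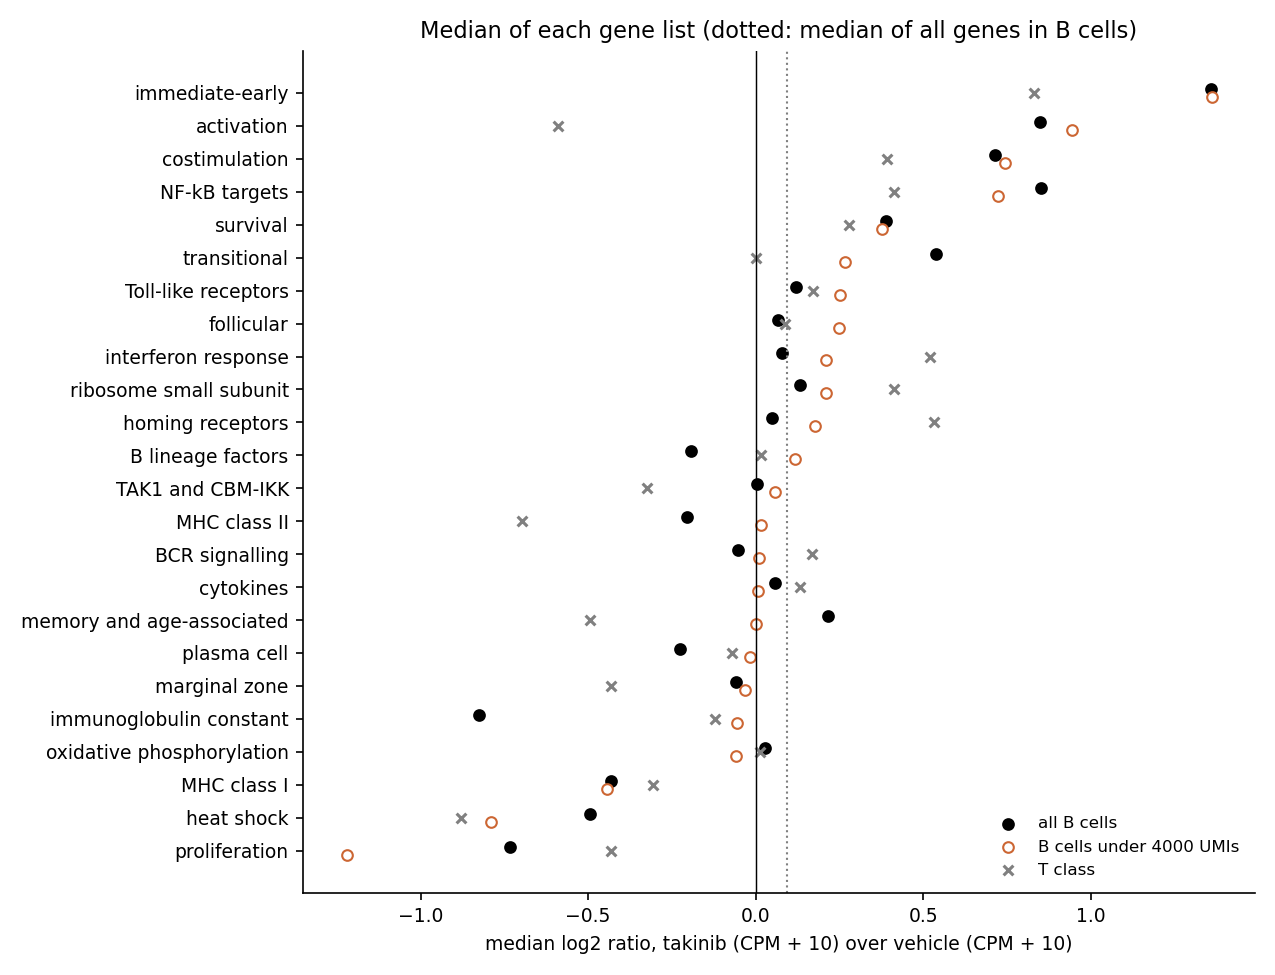
Median log2 ratio of takinib over vehicle (horizontal axis) for each gene list with at least 3 genes of 10 UMIs in B cells under 4000 UMIs, over all B cells (filled), B cells under 4000 UMIs (open) and the T class (crosses); the dotted line is the median of all genes, 0.09. Immediate-early genes lie highest in B cells (1.36), proliferation lowest under 4000 UMIs (-1.22), and receptor signalling at -0.05 and 0.01.

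By size alone, 364 genes were past 1 and 70 past -1 in takinib B cells. Of the 364, 258 also had a log2 ratio past 1 under 4000 UMIs, and 44 of the 70 were past -1 there. Takinib neutrophil-class cells held a higher CPM than takinib B cells for 243 of the 364 genes, 66.8%, against 26.6% of all genes with at least 50 UMIs. The highest ratios outside excluded gene families were those of Saa3, an acute-phase gene (23 UMIs in vehicle and 12704 in takinib), and Lcn2, which binds bacterial iron carriers (3 and 2511). They were followed by Cxcl2, the chemokine gene Ccl3 (6 and 1735), the acute-phase gene Hp, Cxcl3, Elane, Prtn3, Clec4e and Wfdc21. Saa3 was found in 87.2% of takinib B cells and 86.8% of takinib T-class cells, and after thinning in 74.3% [70.7, 77.7] and 70.03% [66.2, 73.6]. It stood at 15145 CPM in takinib macrophage-class cells.

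With genes more abundant in neutrophil-class cells set aside, the highest were Elane, Prtn3, Mmp3, Mpo, Cxcl13, Ctsg, Prss34, Car1, Gpnmb and Car2. Of these, Gpnmb, a gene of lipid-laden macrophages, kept a similar log2 ratio without the deep cells, 3.18 and 3.02, with 128 UMIs in takinib over all B cells and 66 under 4000 UMIs against 0 and 0 in vehicle, at least 10.3-fold higher over all B cells. Macrophage-class cells of takinib held 775 CPM of it, beside 80.7 CPM in B cells and 40.7 CPM in T-class cells. The other 9 had log2 ratios of 3.14 to 5.04 over all B cells and of 0.15 (Mpo and Prss34) to 1.97 (Cxcl13) under 4000 UMIs.

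The lowest ratios belonged to Prl2c3, Tm4sf1, Ctrb1, Serpine2, Col1a2, Col1a1, Igfbp7, Col3a1, Igfbp4 and Pclaf. Ctrb1, a digestive enzyme of acinar cells, stood at 206 and 11.98 CPM in B cells and at 177 and 15.6 CPM in T-class cells. Col1a1, the collagen of fibroblasts, stood at 560 and 73.1 CPM in B cells and at 926 and 153 CPM in T-class cells. With genes more abundant in vehicle macrophage- or T-class cells set aside, the list kept Prl2c3, Tm4sf1, Ctrb1, Serpine2 and Pclaf, and added Top2a, Stmn1 and the histone gene Hist1h2ae, Clu and Tia1. Tia1, an RNA-binding protein of stress granules, stood at 135 and 42.2 CPM and had a log2 ratio of -1.48 over all B cells and -1.44 under 4000 UMIs. Clu was at 1123 and 318 CPM over all B cells but at 489 and 443 CPM under 4000 UMIs.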

How the data were processed

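Per the file headers, Cell Ranger 4 (vehicle) and Cell Ranger 6.1.1 (takinib) produced the deposited matrices, whose entries are unnormalized UMI counts; the submitters' processing notes instead list Cell Ranger 2.1.1, with the build mm10. Per the labels' protocols, fresh tumours were dissociated enzymatically and strained. The number of mice in each library and the chemistry are not given in the sources used here.

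For each library, UMIs of all cells in a class were added up and expressed as CPM. T-class cells had at least 2 Cd3d, Cd3e and Cd3g UMIs and 0 of Cd79a, Cd79b and Ms4a1; macrophage-class cells had at least 10 C1q UMIs. Log2 ratios have 10 CPM added to each side, which understates low genes; ratios with intervals have none added. Gene lists used genes of at least 10 UMIs outside the rule; a few genes, left out of lists, marker sums and gates, are not reported here. Intervals are exact Poisson (CPM), conditional binomial (ratios) and Clopper-Pearson (shares); the ratio code was tested on simulated data. PCR copies aside, UMIs of 1 cell are not independent, so intervals and the floor of 3 counts over a group, used where a library had 0, cover counting error only. Scrublet, in scanpy 1.11.5, marked 0.0037% of takinib barcodes by its own threshold and so did not work there; doublets were kept, and leaving out the 6% highest scores was an alternative. No correction for free RNA was made, except in the subtraction named. B cells held 383897 UMIs in vehicle and 1586215 in takinib.

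The genes named are list members and markers, the 10 highest and 10 lowest log2 ratios past the limit (without mitochondrial, ribosomal, haemoglobin, immunoglobulin, sex-linked and rule genes), the same with some genes set aside, and the 20 genes highest over the T class. Set aside were higher genes with more CPM in takinib neutrophil-class cells, and lower genes with more in vehicle macrophage- or T-class cells. Members and lists were chosen with earlier results of these data known. Gene names are those of the files. Upstream sequences came from RefSeq, with exons from GENCODE M21.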

Additional observations from a re-analysis of the deposited data

How the results depend on the processing

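No paired analysis was possible because each group has 1 sample, and for the same reason no replicate could be left out. The cause of each difference below was not tested. The B cell share of kept barcodes was higher in takinib by 0.43 on the log2 scale; it was -0.025 with S100a8 and S100a9 under 0.5%, -0.12 with that limit and under 4000 UMIs, 1.46 over barcodes with under 2% S100a8 and S100a9, 1.87 with at most 10% mitochondrial UMIs and 1.12 against vehicle cells of male origin. The genes higher in takinib B cells (past 1) and genes lower in takinib B cells (past -1) numbered 364 and 70. Both counts were lowest in 6 settings: 199 and 24 with B cells thinned to 1000 UMIs, 127 and 18 with all barcodes thinned before the rule, 234 and 35 under 4000 UMIs, 129 and 30 with the S100a8 and S100a9 limit as well, 126 and 21 with at least 200 UMIs a gene, 155 and 41 with a pseudocount of 50 CPM. Both were also smaller, at 248 and 56, with S100a8 and S100a9 under 0.5%. They were 285 and 65 with at least 5 rule UMIs and 337 and 64 with the neutrophil profile subtracted. They were 551 and 146 with at most 10% mitochondrial UMIs, 548 and 464 with no count minimum, 989 and 356 against female and 754 and 182 against male vehicle cells, and 111 genes were past -1 with CPM outside mitochondrial and immunoglobulin genes. The median log2 ratio, immediate-early, ranged from 0.87 (pseudocount of 50 CPM) to 1.53 and the median log2 ratio, NF-kB targets, from 0.54 to 1.40. The median log2 ratio, BCR signalling, -0.05 over all B cells, turned to 0.0112 under 4000 UMIs, 0.0778 with the S100a8 and S100a9 limit as well, 0.0117 with that limit alone, 0.0770 with at least 5 rule UMIs, 0.14 with barcodes thinned before the rule, 0.23 with the mitochondrial limit and 0.13 against male vehicle cells. The median log2 ratio, MHC class II, turned to 0.0392 thinned, 0.0161 under 4000 UMIs, 0.13 with the S100a8 and S100a9 limit as well, 0.15 thinned before the rule, 0.0396 as a mean over cells, 0.21 with the mitochondrial limit and 0.26 against female vehicle cells. Of 385 values of 22 other list medians, 51 changed sign, in 13 lists. Of these, 3 were of lists whose median was at least 0.5 in size: median log2 ratio, B1 (-0.0777 as a mean over cells) and median log2 ratio, immunoglobulin constant (0.0833 thinned before the rule, 0.14 against female vehicle cells). Thinned before the rule, Adgre1 was at -0.20, Csf1r at -0.14, Zeb2 at -0.23, Ighg2b at 1.46 and Serpine2 at 0.14. Against female vehicle cells, of which there were 16, Col1a1 was at 1.36, Col3a1 at 2.97, Igfbp7 at 1.51, Serpine2 at 1.26, Tm4sf1 at 0.91 and Fas at -0.21; against male cells Serpine2 was at 0.20. With the neutrophil profile subtracted Retnlg was at -0.70. The limits of 4000 UMIs and of 0.5% were chosen after seeing the data.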
